A study of Danio rerio with 35 samples.

Results

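Abundant maternal messages that ribosomes barely occupied in cleavage-stage zebrafish embryos were taken from the wild-type (WT) ribosome profiling libraries. A transcript was a member when its input level was at least 50 RPM (reads scaled to library size alone, with no correction for gene length) and its ratio of footprints to input was among the 150 lowest, after symbols of cytosolic ribosomal proteins were left out. Of the 9411 profiling entries, 3717 reached the input minimum, 78 of these were ribosomal protein entries, and 3639 remained. The 150 members were compared with the 3489 other abundant entries. The members were thus selected on WT footprints and WT input, and those values are given as a description only.

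Stored messages made by the mother run the cleavage divisions of the zebrafish embryo, since the zygotic genome is silent until the maternal-to-zygotic transition. At this time the amount of protein made from a message depends on how it is recruited to ribosomes, which in early zebrafish embryos is coupled to the length of its poly(A) tail and to RNA-binding proteins inherited from the oocyte. Ribosome profiling sequences the fragments of message that ribosomes shield from nuclease, and the ratio of footprints to input RNA is a common measure of ribosome occupancy.

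The series asks how Nanog, SoxB1 and Pou5f1, maternally supplied transcription factors, contribute to switching on the zygotic genome. The profiling libraries came from whole TUAB embryos at the 64-cell stage, labelled 2 hpf (hours post fertilization), with 50 embryos per condition. They held 28 to 29 nt footprints and poly(A)+ input from uninjected WT embryos and from embryos that had received morpholinos (MO, antisense oligonucleotides) against Nanog and SoxB1 by injection at the 1-cell stage, with 1 library of each kind. The same messages were then followed in 31 mRNA libraries of whole embryos, 5 embryos each, made from rRNA-depleted total RNA or from poly(A)+ RNA. Total RNA from uninjected WT was sequenced at 2 hpf (n = 1), 4 hpf (n = 1) and 6 hpf (n = 3), and from Nanog+SoxB1 MO embryos at 4 hpf (n = 1) and 6 hpf (n = 2). Single total RNA libraries at 4 and at 6 hpf came from embryos injected with alpha-amanitin, an inhibitor of RNA polymerase II, and from embryos bathed from the 32-cell stage in cycloheximide, which blocks translation. Further single libraries covered other MO combinations, MZpou5f1 embryos (hi349Tg/hi349Tg, lacking maternal and zygotic Pou5f1), the triple loss of function (MZpou5f1 with Nanog+SoxB1 MO) and its rescue. Replicates are labelled only as separate samples, so p-values measure the spread between the replicate samples of WT (n = 3) and Nanog+SoxB1 MO (n = 2) at 6 hpf. Groups of 1 library added no spread and were assumed to vary alike.

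The profiling table held 1492629 input and 399567 footprint reads for WT, and 1612899 and 581218 for Nanog+SoxB1 MO. A single footprint read was worth 1.89 RPM in WT and 1.32 RPM in Nanog+SoxB1 MO. A count of 0 allows up to 3 reads, which is 5.68 RPM in WT and 3.96 RPM in Nanog+SoxB1 MO. The exon tables hold no counts, so the depth of the mRNA libraries is unknown. In WT total RNA, 6 listed maternal messages stood between 89.7 and 585 RPKM (reads divided by gene length and library size) at 2 hpf and between 4.97 and 20.8 at 6 hpf. The 6 listed zygotic genes stood at 0 to 3.07 RPKM at 2 hpf and at 16.8 to 212 at 4 hpf. Enveloping layer and yolk syncytial layer markers did not exceed 0.428 RPKM at 2 hpf, while 4 germ cell markers lay between 42.4 and 99.3 RPKM.

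The members were messages with ample input reads and almost no footprints. Their WT input ran from 50.3 to 4497 RPM with a median of 100.6 RPM (188 reads), against a median of 112 RPM in the other abundant entries. In WT, 45 members had 0 footprint reads, 71 had 1 and 34 had 2 or more, of which 5 had 10 or more. Summed over the members, 60751 input reads stood beside 301 footprint reads in WT, and 58747 beside 810 in Nanog+SoxB1 MO. The footprint sums do not compare the conditions, since low WT values chose the members and the libraries differ in depth. The median WT ratio was 0.0166 in the members and 0.536 in the other abundant entries. The limit fell in a continuous range: just inside it lay rasgef1ba (0.0302), acp5a (0.0303), jak2b (0.0306), ccnd3 (0.0308) and ids (0.0316), and just outside it zgc:163143 (0.0317), ppp2cb (0.0319), mtg1 (0.0319), xkrx (0.0321) and bicdl2 (0.0321). Ribosomal protein entries had a median ratio of 0.0690, and 7 of them would have ranked among the 150 lowest. The profiling entries carried a gene symbol for all but 4 members, and adat3 and an unnamed entry had the same reads in all 4 libraries.

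The Nanog+SoxB1 MO libraries, which played no role in choosing the members, gave the same messages a low ratio in other embryos. Input was also at least 50 RPM there for 129 members and 3160 other abundant entries. Of these 129 members, 90 (69.8%) fell in the lowest 10% of the ratio (below 0.0632), where 7.56% of the other abundant entries lay. The ratio was below the median of the others (0.534) in 128 of the 129. The exception was gpatch4, a G-patch protein, at 0.541. The median ratio of the members was 0.0344 in Nanog+SoxB1 MO over these 129, and it had been 0.0166 in WT over all 150. Because low WT values chose the members, these medians do not compare the conditions. With 1 library per kind and condition there was no test of the difference, and the intervals given below for single messages are exact binomial (Clopper-Pearson) intervals that cover counting error only. The share moved with the input minimum of the rule, to 80.5% at 100 RPM and 45.4% at 25 RPM.

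**Figure D1:**
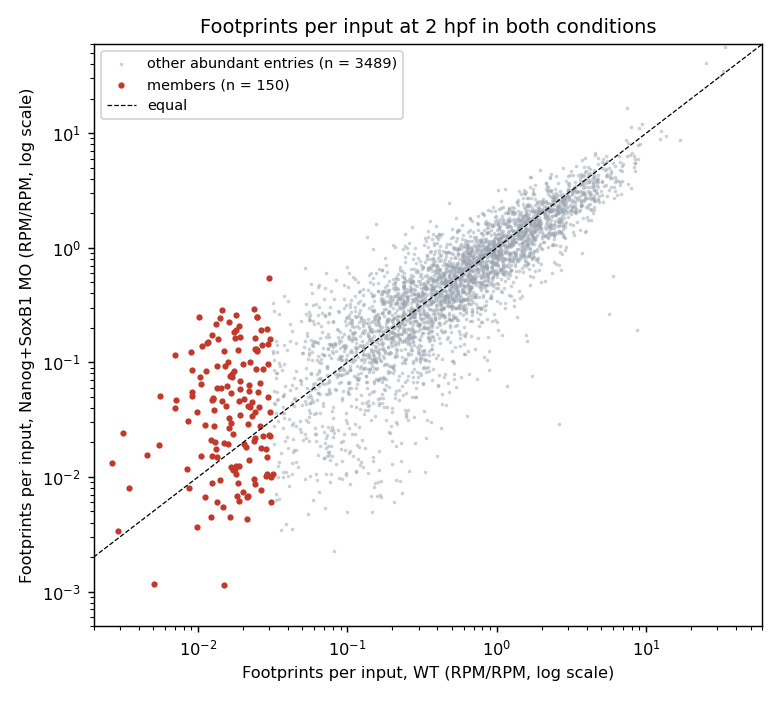
Footprints per input (RPM over RPM, log scales) at 2 hpf in WT (x axis) and Nanog+SoxB1 MO (y axis), with 150 members in red and 3489 other abundant entries in grey. Entries with 0 footprint reads are drawn at 0.5 read, and the members lie to the left because WT values chose them, with 128 of the 129 comparable members below the others' median of 0.534 on the y axis.

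Several of the members with the most input encode well-studied proteins. The highest input belonged to acp5a, a tartrate-resistant acid phosphatase, at 4497 RPM in WT and 4823 RPM in Nanog+SoxB1 MO. It had 72 and 83 footprint reads, for ratios of 0.0303 (95% interval 0.0237 to 0.0382) and 0.0227 (0.0181 to 0.0282). These intervals overlapped, and acp5a had the most footprint reads of any member in both libraries.

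All 4 abundant ferritin entries, grouped after their values were seen, were members. The ferritin heavy chain message fth1a had 1909 RPM input and 15 footprint reads in WT, a ratio of 0.0149 (0.0083 to 0.0246), and 24 reads in Nanog+SoxB1 MO, a ratio of 0.0199 (0.0127 to 0.0297). Ferritin translation in mammals is held back by proteins bound to an iron-responsive element in the message. The other 3 were the ferritin-like genes fthl27, fthl28 and fthl29. In fthl27, 4 footprint reads in WT (ratio 0.0150, 0.0041 to 0.0385) stood against 0 in Nanog+SoxB1 MO, at inputs of 505 and 580 RPM. Both fthl28 and fthl29 had 0 footprint reads in either condition, at inputs between 82.7 and 109 RPM. The ferritin-like genes are a family of related copies, and reads could have been split or lost among them, so their values are uncertain.

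Cell-cycle messages among the members included ccnp (a cyclin), aurka (the mitotic kinase Aurora A) and fbxo5 (Emi1, an inhibitor of the anaphase-promoting complex). The cyclin message ccnp had 1375 RPM input and 13 footprint reads in WT (ratio 0.0179) and 14 reads in Nanog+SoxB1 MO (0.0126). For aurka the ratios were 0.0172 from 7 reads and 0.0115 from 8 reads, at inputs of 768 and 916 RPM. The message of fbxo5 had 715 RPM input and a single footprint read in WT, a ratio of 0.0026 (0.0001 to 0.0148), and 5 reads in Nanog+SoxB1 MO, a ratio of 0.0133 (0.0043 to 0.0312). The 95% intervals of both conditions overlapped for each of these 3 messages.

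Oocyte messages were also present. The message of btg4, an adaptor that brings the CCR4-NOT deadenylase to maternal messages in mouse, had 641 RPM input and 5 footprint reads in WT (ratio 0.0148) and 2 reads in Nanog+SoxB1 MO (0.0054). The oocyte RNA-binding protein message zar1l had ratios of 0.0264 (0.0120 to 0.0502) and 0.0078 (0.0025 to 0.0181) from 9 and 5 reads. The message of mos, the kinase that holds the mature egg in arrest, had 1 footprint read in WT at 603 RPM input and 9 in Nanog+SoxB1 MO at 496 RPM, ratios of 0.0031 (0.0001 to 0.0175) and 0.0240 (0.0109 to 0.0457). The message of bmp15, an oocyte growth factor, had 1 read in each condition at 151 and 148 RPM input. Ratios for these genes rested on 9 reads or fewer in each library.

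Energy metabolism and elongation factors made up the rest of the top of the list. The mitochondrial carrier message ucp2 had 1203 RPM input and 19 footprint reads in WT (0.0299), and 18 reads in Nanog+SoxB1 MO (0.0235). The enolase message eno3 had 979 RPM input, with ratios of 0.0271 and 0.0229 from 14 and 20 reads. The elongation factor 1 subunit messages eef1b2 and eef1g had ratios of 0.0124 and 0.0258 in WT and 0.0152 and 0.0278 in Nanog+SoxB1 MO. Messages of elongation factor subunits, like those of ribosomal proteins, carry a terminal oligopyrimidine tract in mammals, through which their translation is regulated.

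**Figure D2:**
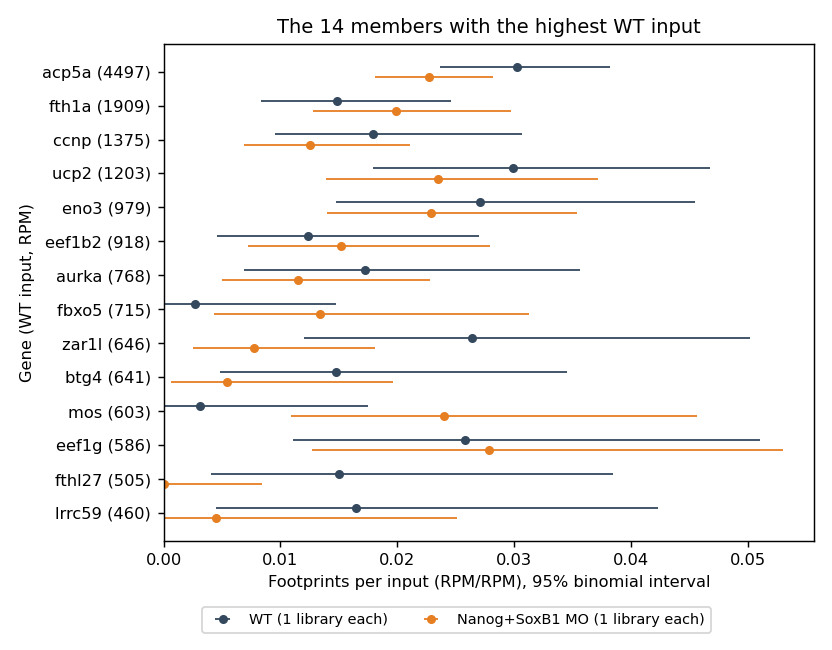
Ratio of footprints to input (RPM over RPM, x axis) with 95% binomial intervals for the 14 members with the highest WT input (y axis, WT input in RPM in brackets), 1 library per kind and condition. The points of WT and Nanog+SoxB1 MO all lie below 0.0316, and the 2 intervals overlap for each message shown.

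The lowest places belonged to members with 0 WT footprint reads and the most input. The message of ripor3 led at 326 RPM, where a count of 0 allows a ratio of up to 0.0174 (3 reads), and it had 1 read at 395 RPM in Nanog+SoxB1 MO. It was followed by hirip3 at 276 RPM (up to 0.0206), whose name marks a partner of the histone chaperone HIRA, and by the F-box message fbxl14a at 172 RPM (up to 0.0329). Next came uqcrq, a complex III subunit, agps, an enzyme of ether lipid synthesis, and chchd6a of the mitochondrial inner membrane organizing complex, at 135, 112 and 110 RPM. The other members of these 15 were fthl29, tm2d2, arl5a, sybu, senp3a, ppp1r14aa, rad17, znf76 and chchd6b, with 89.9 to 109 RPM. In zebrafish, maternal sybu is needed to set up the dorsal axis. In Nanog+SoxB1 MO the 15 had between 0 and 13 footprint reads.

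The members named for the largest difference between conditions had more footprints in Nanog+SoxB1 MO. The message of gpatch4 went from 4 reads at 254 RPM input in WT, a ratio of 0.0298 (0.0081 to 0.0768), to 31 reads at 75.7 RPM, a ratio of 0.541 (0.355 to 0.800). The message of ppp1r14aa, which encodes an inhibitor of protein phosphatase 1, went from 0 to 13 reads and shld2, a shieldin subunit of DNA repair, likewise from 0 to 13, for Nanog+SoxB1 MO ratios of 0.248 and 0.261. The kinase message akt2l and the phosphatase message ppm1db went from 0 to 10 reads, with ratios of 0.244 and 0.172, and eif2b2, a subunit of the exchange factor eIF2B, from 0 to 4 reads (0.148). The counts of 0 in WT allow ratios (3 reads) of up to 0.0613 for ppp1r14aa, 0.0835 for akt2l, 0.0747 for ppm1db, 0.108 for shld2 and 0.0689 for eif2b2. Because low WT values chose the members and these 6 were then named for their difference, the differences are a description. In the other direction fthl27, rdh10b (retinol dehydrogenase), jak2b (a Janus kinase), acd (a telomere shelterin protein), st6gal2a (a sialyltransferase) and ccnd3 (a D-type cyclin) went from 1 to 4 reads in WT to 0. Of all members, 21 had 0 footprint reads in Nanog+SoxB1 MO, 55 had 1 to 3 and 20 had more than 10.

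By function, members were most frequent among translation and mitochondrial messages. Groups were formed by symbol over the abundant entries, of which 4.12% were members. Among 51 abundant messages with symbols starting in eif or eef, as those of initiation and elongation factors do, 9 (17.6%) were members. The median WT ratio of the group was 0.192. These prefixes also take in related genes, such as the member eef1akmt1. They included eef1b2, eef1g and eef1da, the eIF2 subunit eif2s2 and the eIF2B subunits eif2b4 and eif2b2. Among 113 messages of the mitochondrion and respiration, 15 (13.3%) were members, with a group median of 0.149, and these included the complex III subunits uqcrc2b and uqcrq and the mitochondrial ribosomal proteins mrps35, mrpl18, mrpl36 and mrpl12.

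Other groups held few or none. Cell cycle and mitosis held 5 of 82 (ccnp, aurka, the spindle checkpoint gene bub3, cdca9 and ccnd3), and egg and oocyte genes 2 of 34 (zar1l and btg4). By symbol there were 2 of 44 transcription factors (znf76 and znf593), 1 of 26 metabolic enzymes (eno3), 1 of 102 ubiquitin and proteasome messages (fbxo5) and 1 of 112 RNA-binding, splicing and decay messages (ddx51, a DEAD-box helicase). No member was among 50 histone and chromatin messages (median ratio 1.54) or 74 membrane traffic and cytoskeleton messages (0.485). The remaining 114 members matched none of these symbol lists, among them the oocyte messages mos and bmp15, the transcription factor lhx8a and the enzyme agps. The lists were short, so the counts hold for the listed symbols and not for every gene of a function. The WT ratio chose the members, so these shares describe the list.

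The listed genes that control stored messages mostly had ratios above the median of the abundant entries. Of 72 listed genes for poly(A) tail control, cap binding, deadenylation and masking, 40 entries were abundant, and their median WT ratio was 0.982 against 0.5004 for all abundant entries. Only 7 of the 40 lay below that median, and 2 (btg4 and zar1l) were members.

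At 4 hpf the members' values in poly(A)+ relative to total RNA were lower than those of the other abundant messages. Of the 150 members, 122 had an entry in the exon table (114 by symbol, 7 by an older symbol and 1 by accession), all 122 passed the filter on low values, and 28 were not matched, among them fbxl14a, fthl29, akt2l, ppm1db and rdh10b. The median log2 difference of poly(A)+ minus total RNA in WT at 4 hpf was -0.37 in the members, 0.06 in the 2571 other abundant genes and -0.19 in all 16542 genes (RPKM + 0.5, 1 library of each kind, no test). At least 2-fold lower values were found for 28 members (23.0%), against 8.63% of the other abundant and 19.2% of all genes, and at least 2-fold higher values for 4 members, against 12.1% and 8.03%. The members' share thus lay near that of all genes and above that of the other abundant messages.

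Single messages differed widely. Apart from fthl28, which was named after its values were seen, the examples come from genes named by the other rules. They include the members with the largest difference in each direction, fthl28 and hirip3, so they do not stand for the members as a whole. On the lower side the difference was largest in fthl28 (12.5 RPKM in poly(A)+ and 131 RPKM in total RNA at 4 hpf). The spindle checkpoint message bub3 had 4.94 RPKM in poly(A)+ and 42.7 RPKM in total RNA at 4 hpf, inka1b (an inhibitor of the kinase PAK4) 16.2 and 108 RPKM, and sybu 8.46 and 57.1. The oocyte message zar1l had 72.7 RPKM in poly(A)+ and 283 in total RNA. In the other direction fam133b had 77.3 RPKM in poly(A)+ and 23.7 in total RNA, and hirip3 48.4 and 2.51. The message of hirip3 also had 27.2 RPKM in total RNA at 2 hpf, and at 6 hpf it had 35.8 RPKM in poly(A)+ and a mean of 2.69 RPKM in the 3 total RNA libraries, so the higher poly(A)+ value was seen at both stages. By 6 hpf the members' median (-0.34) was close to that of the others (-0.35) and of all genes (-0.35), with 21 members at least 2-fold lower against 15.9% of the others and 17.3% of all genes, and 6 at least 2-fold higher against 5.8% and 5.24%.

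**Figure D3:**
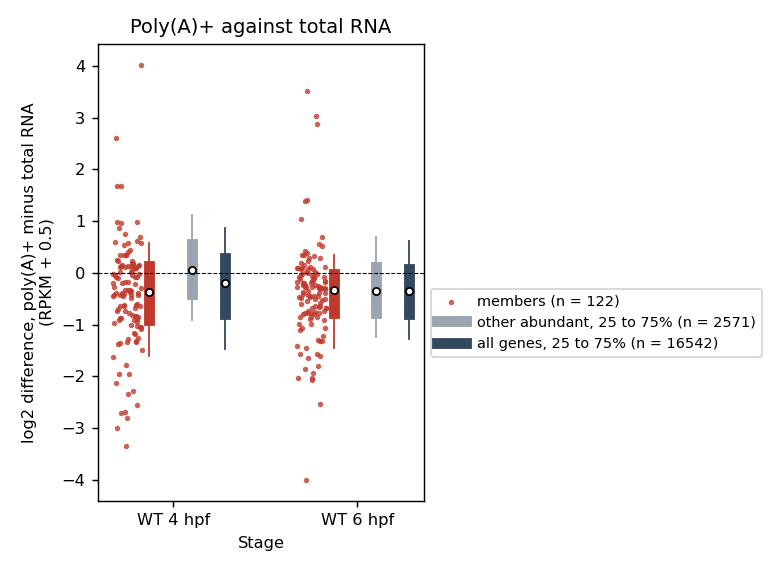
Log2 difference between poly(A)+ and total RNA (RPKM + 0.5, y axis) in WT at 4 and 6 hpf (x axis), 1 poly(A)+ library per stage, and 1 total RNA library at 4 hpf and the mean of 3 at 6 hpf. Red points are the 122 members, thick bars span the 25th to 75th and thin bars the 10th to 90th percentile, and open circles mark the medians, which at 4 hpf were -0.37 in the members and 0.06 in the other abundant genes.

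In WT total RNA most members were lower at 6 hpf than at 2 hpf. Their median level was 42.5 RPKM at 2 hpf, 30.7 RPKM at 4 hpf and 11.1, 12.6 and 13.1 RPKM in the 3 libraries at 6 hpf. The other abundant messages began at the same median (42.4 RPKM) and stood at 41.3 RPKM at 4 hpf and at 23.1, 24.6 and 25.3 RPKM at 6 hpf. From 2 to 6 hpf, 87 of the 122 members fell and 9 rose (limma on log2 of RPKM + 0.5 over 16542 genes, Benjamini-Hochberg adjusted p under 0.05), where 40.6% of all genes and 54% of the other abundant genes fell and 24.8% and 17.8% rose. The median log2 difference was -1.37 in the members, -0.71 in the other abundant genes and -0.41 in all genes. In whole embryos, loss of cells that hold a message and loss of the message per cell cannot be told apart. With each library centred on its median, 61 members fell and 23 rose, beside 856 and 901 of the 2562 other abundant genes. The medians were then -0.67 in the members and -0.01 in the other abundant genes.

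Most of the fall lay between 4 and 6 hpf. From 4 to 6 hpf, 71 members fell and 12 rose, with a median of -1.06, where 36.1% of all genes and 52.1% of the others fell and 20.7% and 15.1% rose. Centred libraries gave 55 and 25, to which these uncentred shares do not apply. From 2 to 4 hpf, with 1 library on each side, the median was -0.30, and 6 members fell and 1 rose, where 0.961% of all genes and 1.41% of the others fell and 3.39% and 1.01% rose. Without Nanog+SoxB1 MO replicate 1 or 2, which only lend their spread to this comparison, it had 1 call, and without WT replicate 2 it had 4. The single rise was brd2a, a chromatin reader of acetylated histones, from 15.7 to 38.7 RPKM. The call for brd2a was lost without Nanog+SoxB1 MO replicate 1 or 2.

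**Figure D4:**
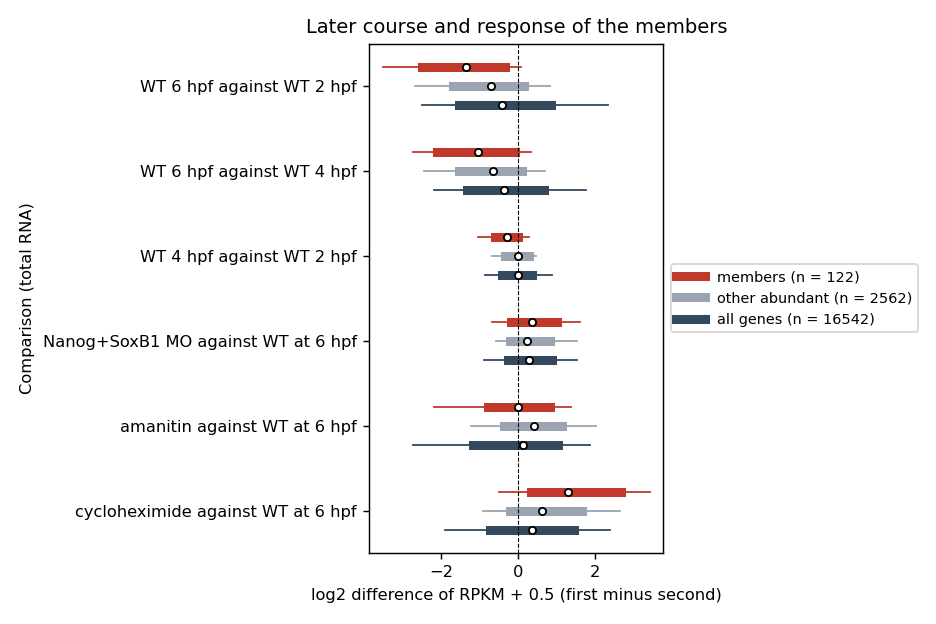
Log2 differences (RPKM + 0.5, x axis) for 6 comparisons of total RNA (y axis) in members (n = 122), other abundant genes (n = 2562) and all genes (n = 16542). Open circles are medians, thick bars the 25th to 75th and thin bars the 10th to 90th percentile, and the members' median is -1.37 for WT 6 hpf against 2 hpf and 1.31 for cycloheximide against WT at 6 hpf.

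Oocyte messages were among those with the largest falls. The message of btg4 stood at 420 RPKM at 2 hpf, 185 at 4 hpf and 5.66, 4.90 and 4.36 in the 3 WT libraries at 6 hpf, a log2 difference from 2 to 6 hpf of -6.27 ± 0.17 (SE, limma, Benjamini-Hochberg adjusted p = 2.0e-06). The message of zar1l stood at 563, 283 and then 12.5, 12.8 and 22.4 RPKM, a difference of -5.15 ± 0.35 (adjusted p = 5.8e-05). For both genes every library at 6 hpf lay far below the earlier ones. The kinase message mos went from 87.9 RPKM to 3.00, 3.79 and 5.52 (-4.30 ± 0.34), and bmp15 from 59.1 RPKM to 2.04, 2.58 and 1.73 (-4.52 ± 0.28). The oocyte transcription factor lhx8a, named after its values were seen, went from 42.6 RPKM to between 1.28 and 2.53 (-4.16 ± 0.32).

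All 5 members tested of the cell cycle and mitosis group, formed by symbol, fell from 2 to 6 hpf. Over this course 40.6% of all genes and 54% of the other abundant genes fell. The message of fbxo5 is counted by symbol in the ubiquitin and proteasome group. The cyclin message ccnp stood at 481 RPKM at 2 hpf, 347 at 4 hpf and 17.8, 25.05 and 40.1 at 6 hpf (-4.17 ± 0.38, adjusted p = 0.00017). The message of cdca9, of the cell division cycle associated family, went from 146 RPKM to 1.72, 1.23 and 4.14 (-5.81 ± 0.50). The kinase message aurka fell less, from 235 RPKM to 93.7, 102 and 102 (-1.24 ± 0.12), and ccnd3 fell by 2.38 ± 0.32 on the log2 scale. The call for bub3 (-0.51 ± 0.15) was lost without WT replicate 2 (-0.52) and turned when libraries were centred (0.19). The message of fbxo5, in contrast, stood at 175, 131 and then 162, 165 and 165 RPKM (-0.09 ± 0.11, adjusted p = 0.49).

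Other large falls were those of ripor3, from 104 RPKM to 2.08, 2.76 and 4.15 (-4.94 ± 0.32), and hbegfa, an EGF-like growth factor, from 29.7 RPKM to 1.28, 0.608 and 1.07 (-4.37 ± 0.37). The phosphatase message acp5a went from 822 RPKM at 2 hpf and 904 at 4 hpf to 138, 171 and 218 (-2.25 ± 0.24), and eno3 from 338 to 72.0, 88.2 and 146 (-1.79 ± 0.35). Among the members with 0 WT footprint reads, sybu fell by 2.88 ± 0.16, rad17, a checkpoint clamp loader, by 3.15 ± 0.29, and tm2d2 by 2.17 ± 0.18 on the log2 scale.

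Of 13 mitochondrial members tested, 8 fell and 1 rose, with a median of -0.86. Of all genes 40.6% fell and 24.8% rose, and of the other abundant genes 54% and 17.8%. The calls for uqcrc2b, mrpl18 and mrpl36 were lost when libraries were centred. That for mrpl36 was also lost without WT replicate 1 (-0.82) or either Nanog+SoxB1 MO replicate (-0.79). The mitochondrial ribosomal protein message mrpl12 fell by 2.44 ± 0.30 and mrps35 by 1.64 ± 0.23 on the log2 scale. The complex III message uqcrq stood at 65.5 RPKM at 2 hpf, 38.8 at 4 hpf and 65.9, 65.4 and 76.3 at 6 hpf (0.07 ± 0.15, adjusted p = 0.68). Of 7 translation members tested, 4 fell and none rose in the limma fit, where 40.6% of all genes and 54% of the other abundant genes fell. The call for eef1da was lost when libraries were centred (-0.455). The message of eif2b4 fell by 1.38 ± 0.21 and eif2b2 by 1.58 ± 0.30, and eef1b2 held 119 RPKM at 2 hpf and 95.8, 101 and 125 at 6 hpf (-0.16 ± 0.17, adjusted p = 0.42). The call for eef1g (-0.45 ± 0.16) was lost without WT replicate 1 (-0.37), WT replicate 2 (-0.42) or either Nanog+SoxB1 MO replicate (-0.45), and it turned when libraries were centred (0.25).

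The few rises included 2 ferritin genes. The ferritin message fth1a rose from 657 RPKM at 2 hpf and 744 at 4 hpf to 927, 912 and 1028 (0.54 ± 0.12, adjusted p = 0.0071), and fthl27 from 269 and 319 to 509, 501 and 609 (1.00 ± 0.15). The carrier message ucp2 rose from 143 and 209 to 424, 423 and 473 RPKM (1.61 ± 0.13), and svopl, a transporter-like gene, from 29.1 and 20.4 to 95.6, 104 and 134 (1.90 ± 0.20). In each of these 4 every library at 6 hpf lay above both earlier libraries. The other rises named by rule were brd2a (1.15 ± 0.15), the phosphatase ptp4a2a (0.98 ± 0.16), fam133b (0.92 ± 0.15) and grsf1, an RNA-binding protein of mitochondrial RNA granules in mammals (0.55 ± 0.19), whose call was lost without WT replicate 2 (0.55) or 3 (0.48).

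**Figure D5:**
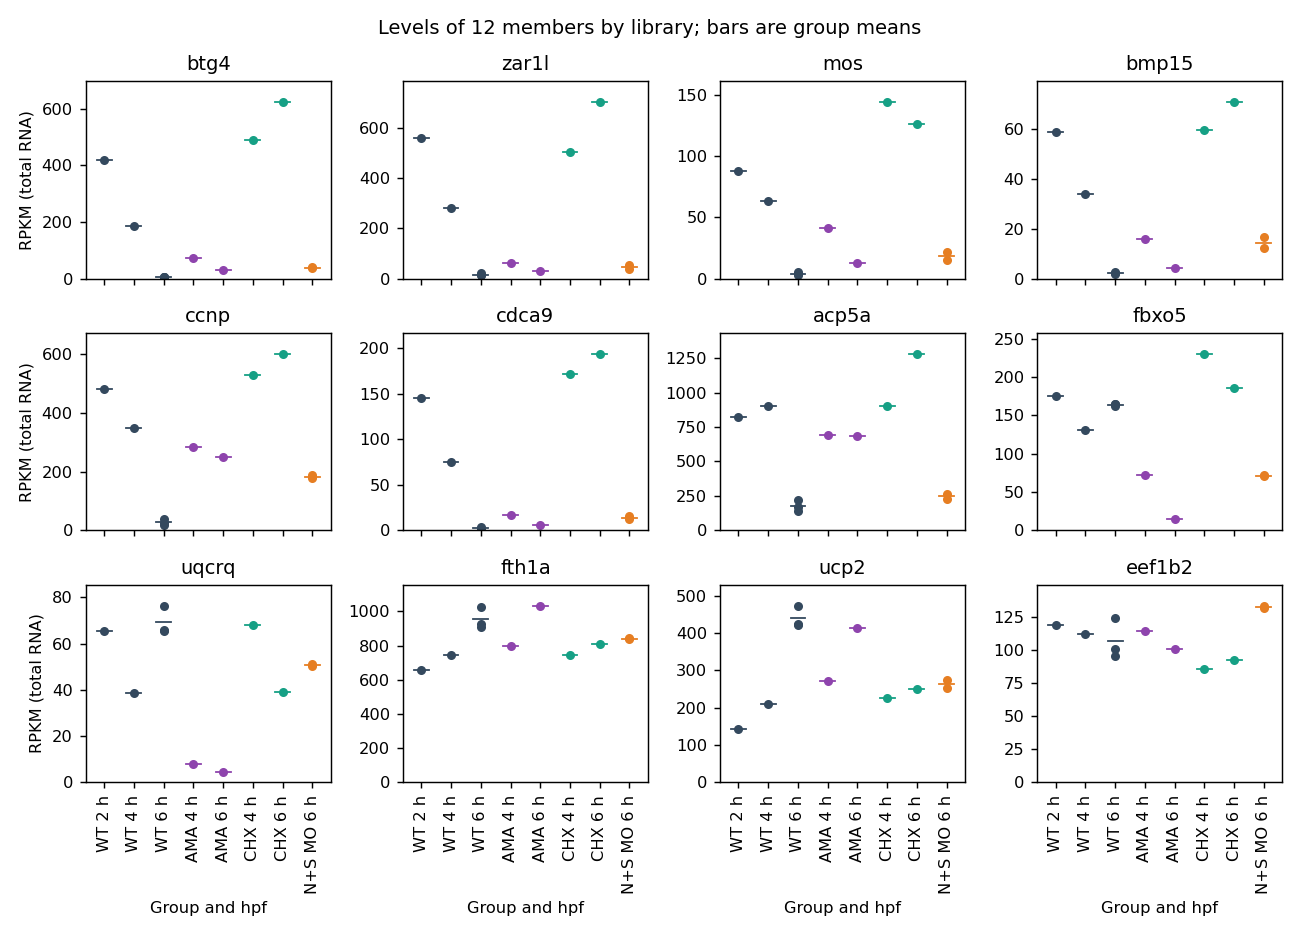
RPKM in total RNA (y axes, from 0) of 12 members by stage in hours post fertilization (x axis). Every WT, alpha-amanitin (AMA) and cycloheximide (CHX) library is drawn, and those of Nanog+SoxB1 MO (N+S MO) at 6 hpf only. Points are libraries and bars are group means, and btg4, zar1l, mos, bmp15, ccnp and cdca9 are near 0 in WT at 6 hpf but high in both cycloheximide libraries.

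In cycloheximide at 6 hpf most members were higher than in WT. The fit set the single cycloheximide library at 6 hpf against the same 3 WT libraries used for the course from 2 to 6 hpf, so the comparisons share those libraries, and the cycloheximide values are given beside the WT ones for that reason. The median log2 difference was 1.31 in the members, 0.64 in the other abundant genes and 0.36 in all genes. Here 85 members were higher and 11 lower than WT, where 37.4% of all genes and 52.2% of the others were higher and 22.4% and 18.4% lower. Centred libraries gave 67 and 20, to which these uncentred shares do not apply.

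The message of btg4 in cycloheximide stood at 491 RPKM (4 hpf) and 623 RPKM (6 hpf), and its 3 WT libraries at 6 hpf did not exceed 5.66 (6.84 ± 0.17, limma, Benjamini-Hochberg adjusted p = 6.1e-06). The message of zar1l stood at 504 and 705 RPKM, mos at 144 and 127, and cdca9 at 171 and 193. The cyclin message ccnp stood at 531 and 601 RPKM and ripor3 at 76.8 and 122. The values of these 6 in cycloheximide at 6 hpf lay above the single WT value at 2 hpf. All 5 members tested of the cell cycle and mitosis group were higher than WT, beside 37.4% of all genes and 52.2% of the other abundant genes. The call for bub3 (0.43 ± 0.15) was lost without WT replicate 1 (0.45), 2 (0.44) or 3 (0.40) or either Nanog+SoxB1 MO replicate (0.43). It turned when libraries were centred (-0.13), and the call for ccnd3 was then lost (0.805). The message of fbxo5, outside this group by symbol, was not called (0.18). Of the 13 mitochondrial members 8 were higher and 2 lower. The shares were 37.4% and 22.4% of all genes, and 52.2% and 18.4% of the other abundant genes.

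Lower than WT at 6 hpf in cycloheximide were svopl (-1.76 ± 0.20), zgc:110269 (-1.13 ± 0.28, a call lost with no filter on low values), eif2s2 (-1.07 ± 0.16), ptp4a2a (-1.05 ± 0.16) and fam133b (-0.95 ± 0.15). The carrier message ucp2 stood at 226 and 251 RPKM (-0.81 ± 0.13). The separate cycloheximide library at 4 hpf, set against the WT library of that stage with no test, had a members' median of 0.35 against -0.01 in the others and 0.02 in all genes, and 14 members (11.5%) were at least 2-fold higher, against 2.99% of the others and 7.3% of all genes. The ferritin-like fthl28, named after its values were seen, was 0.391 RPKM in that library and 35.0 RPKM in cycloheximide at 6 hpf, beside 131 RPKM in WT at 4 hpf.

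In alpha-amanitin the members lay on both sides of WT at 6 hpf, in shares close to those of all genes. At 6 hpf, against the same WT libraries, 38 members were lower and 37 higher, where 28.2% of all genes and 20.9% of the others were lower and 30.6% and 45.1% higher. The median was -0.01 in the members, 0.43 in the other abundant genes and 0.12 in all genes. The 3 members furthest below WT were not among those that fell in WT: svopl stood at 3.91 RPKM in amanitin (-4.65 ± 0.20), uqcrq at 4.29 (-3.86 ± 0.15) and fbxo5 at 14.9 (-3.41 ± 0.11, adjusted p = 4.5e-06). The message of trub2, a pseudouridine synthase, was at 1.30 RPKM (-3.04 ± 0.24) and brd2a at 4.50 RPKM (-2.84 ± 0.15). Members that fell in WT from 2 to 6 hpf were found on both sides. Their fall and this comparison share the WT libraries at 6 hpf, so nothing is drawn from which side held more of them.

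The highest values relative to WT were those of ccnp (252 RPKM, 3.24 ± 0.38), ap5m1, an adaptor complex subunit (8.67 RPKM, 2.78 ± 0.47), btg4 (29.6 RPKM, 2.47 ± 0.17), naxe, a repair enzyme of nicotinamide cofactors (26.6 RPKM, 2.12 ± 0.30), and acp5a (683 RPKM, 1.98 ± 0.24). The acp5a level in amanitin compares with 822 RPKM in WT at 2 hpf, whereas that of btg4 compares with 420. Thus ccnp and acp5a were nearer their early level than btg4 was. Of the 13 mitochondrial members, 7 were lower and 1 higher. The shares were 28.2% and 30.6% of all genes, and 20.9% and 45.1% of the other abundant genes.

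At 4 hpf the members were lower in amanitin than in WT, by a median of -0.57 against -0.04 in the others and -0.11 in all genes. At least 2-fold lower were 34 members (27.9%), against 8.17% of the others and 14.7% of all genes. The direction was not kept as a whole. At 6 hpf the members' median was -0.01, with btg4 higher than WT (2.47) and fbxo5 lower (-3.41). The amanitin library at 4 hpf held btg4 at 71.0 RPKM (WT 185), zar1l at 62.3 (WT 283), cdca9 at 17.0 (WT 75.2) and fbxo5 at 72.9 (WT 131). Both sides are single libraries and no test was made.

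Nanog+SoxB1 MO embryos held more of several oocyte and cell-cycle messages than WT at 6 hpf. Both groups had replicates here, and the 3 WT libraries were again those of the course from 2 to 6 hpf. Of the members 50 were higher and 21 lower, where 29.9% of all genes and 37.4% of the others were higher and 13.7% and 15.7% lower. The median was 0.37 in the members, 0.24 in the others and 0.30 in all genes. With libraries centred on their median 30 were higher and 36 lower, so the split differed between the 2 scalings. The shares above are of the main fit. None is given here for the counts with centred libraries or without a replicate, so those counts are not read as particular to the members. Without Nanog+SoxB1 MO replicate 1 there were 37 calls and without replicate 2 there were 29.

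Higher were btg4, at 39.4 and 36.9 RPKM (2.83 ± 0.13, limma, Benjamini-Hochberg adjusted p = 6.8e-05), ccnp at 177 and 189 (2.78 ± 0.30), ripor3 at 21.7 and 18.8 (2.61 ± 0.25), bmp15 at 12.2 and 16.7 (2.51 ± 0.22) and cdca9 at 12.9 and 15.2 (2.47 ± 0.40). Both libraries lay above all 3 WT libraries for each of the 5 and below the WT library at 2 hpf. The call for cdca9 was lost without Nanog+SoxB1 MO replicate 2 (2.36). Lower were inka1b at 12.6 and 18.001 RPKM against 58.7, 53.6 and 42.5 in WT (-1.73 ± 0.20), hirip3 (-1.30 ± 0.25), fbxo5 at 70.3 and 72.1 (-1.20 ± 0.09, adjusted p = 2.0e-04), ddx51 (-1.09 ± 0.24) and cox7a2l, a factor of respiratory supercomplexes (-1.09 ± 0.15). The call for hirip3 was lost without Nanog+SoxB1 MO replicate 2 (-1.18), and that for ddx51 without replicate 1 (-0.999) or 2 (-1.18).

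In the triple loss of function the members' median difference from WT was 0.37 at 4 hpf, with 15 members (12.3%) at least 2-fold higher against 3.77% of the others and 9.42% of all genes. At 6 hpf in total RNA the members' median was 0.68. The medians at these stages were 0.02 and 0.39 in the others, and 0.02 and 0.40 in all genes. In poly(A)+ RNA of the triple loss the medians were 0.59 in the members and 0.55 in the others at 6 hpf, and 0.35 and 0.45 at 8 hpf. At 6 hpf Nanog MO alone had medians of 0.39 in the members, 0.24 in the others and 0.22 in all genes, and MZpou5f1 alone had 0.20, 0.14 and 0.15. At 4 hpf the members' medians were 0.11 in Nanog MO and -0.01 in MZpou5f1, beside 0.02 and -0.07 in the others and 0.04 and 0.07 in all genes. In the single Nanog+SoxB1 MO library at 4 hpf the medians were 0.33 in the members, 0.06 in the others and 0.01 in all genes. The message of btg4 stood at 131 RPKM in total RNA of the triple loss at 6 hpf, at 30.9 in Nanog MO and at 22.7 in MZpou5f1, with no replicate for any of the 3.

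In the same fits the 72 listed genes of translational control, of which 48 were tested, moved both ways. From 2 to 6 hpf in WT 22 of the 48 fell and 15 rose, beside 40.6% and 24.8% of all genes. At 6 hpf in Nanog+SoxB1 MO 12 were lower and 20 higher, beside 13.7% and 29.9%. In amanitin 12 were lower and 23 higher, beside 28.2% and 30.6%, and in cycloheximide 19 and 19, beside 22.4% and 37.4%. All genes thus moved both ways as well.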

How the data were processed

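Per the labels' protocols, footprints of 28 to 29 nt came from a kit-based ribosome profiling of 50 embryos, with poly(A)+ input, and strand-specific mRNA libraries from 5 embryos. CASAVA 1.8.2 and TopHat2 2.0.7 are listed in the submitters' processing notes, as are Bowtie 0.12.9 and the build Zv9 (danRer7). The authors deposited exon values in RPKM. The profiling values were named as RPKM, but every deposited value was a whole multiple of 1 step per column (within 0.1 read), so they were read as RPM, and reads were recovered from that step. Symbols were matched by accession for 95.6% of profiling entries. Of 27997 exon entries, 846 that join genes were left out.

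Models were fitted with lmFit and eBayes (trend) of limma 3.58.1 in R 4.3.3 to log2(RPKM + 0.5) over 16542 genes that reached 1 RPKM in 2 or more of the libraries used, with 13 total RNA libraries as group means, 3 residual degrees of freedom, two-sided p-values and Benjamini-Hochberg adjustment, and were tested on simulated data. Groups of 1 library were assumed to vary like WT (n = 3) and Nanog+SoxB1 MO (n = 2) at 6 hpf. Alternatives were other pseudocounts, no filter on low values, centred libraries, WT libraries alone, leaving out each replicate, a replicate block and other limits of the rule. Genes were named by fixed rules (lowest ratio, highest input, largest changes, leading members of each function group), exceptions are marked, and 1 gene is not reported here. The members and all lists were chosen with earlier results of these data known. Intervals and floors cover counting error only and treat each read as independent, although PCR copies were not marked by molecular identifiers.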

Additional observations from a re-analysis of the deposited data

How the results depend on the processing

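For 234 results on named members, 157 kept their direction and their call under every alternative tried, and of 2521 recomputed values 2317 did so, 197 were no longer past the threshold and 7 turned. All 7 that turned did so with libraries centred on their median, whose log2 medians ran from 2.37 to 3.15: aurka (-0.0339) and fthl27 (-0.000992) in Nanog+SoxB1 MO, bub3 (0.19), eef1g (0.25) and exosc6 (0.17) from 2 to 6 hpf, bub3 in cycloheximide (-0.13) and uqcrc2b from 4 to 6 hpf (0.0128). Of these genes exosc6 was named outside the fixed rules. The cause of the turns was not tested.

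Leaving out 1 replicate gave 29 to 74 member calls in Nanog+SoxB1 MO, 1 to 7 from 2 to 4 hpf, 88 to 97 from 2 to 6 hpf, 76 to 84 from 4 to 6 hpf, 65 to 84 in amanitin and 89 to 95 in cycloheximide. With no filter on low values the step from 2 to 4 hpf had 4 calls, with more genes tested. The share of members in the lowest 10% of the Nanog+SoxB1 MO ratio was 80.5% with an input minimum of 100 RPM and 45.4% with 25 RPM. With the replicate number as a block in the 4 libraries of WT and Nanog+SoxB1 MO replicates 1 and 2, 79 of 121 members were called, and 75 in the same libraries without the block, which was added after seeing the data. The numbers have no stated pairing, and the deviations of same-numbered libraries correlated at 0.0916 across genes. The median of poly(A)+ minus total RNA at 4 hpf was -0.38 and -0.36 with 0.1 and 1 RPKM added.

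Limits: 116 of the 150 members had 0 or 1 WT footprint reads, so their order among themselves is within counting error. Profiling had no replicate, 28 members had no exon entry, and most stage and drug comparisons rest on 1 library on one side.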
